A study of Homo sapiens with 19 samples.

Results

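The OCT-2 peaks at the ends of protein-coding genes outside superenhancers are short regions bound by the transcription factor OCT-2 in human breast cancer cells with forced OCT-2. They were chosen by position from the authors' list of OCT-2 regions in these cells. A region was taken when it lay within 1 kb of either end of a protein-coding RefSeq gene, overlapped no superenhancer of the same cells and lay more than 1 kb from any histone gene of the H1, H2A, H2B, H3 and H4 clusters. Of the 5741 regions in the list, 5736 lay on chromosomes 1 to 22 and X, and 415 of these met the rule, which is 7.24%. Of the 5736, 904 lay inside superenhancers and 502 within 1 kb of a gene end. Outside superenhancers 427 lay at gene ends, and 12 of them were left out at histone genes. The 415 peaks are 8.59% of the 4832 OCT-2 peaks outside superenhancers. The rule used position alone, so neither the closeness to genes nor the distance from superenhancers is a finding.

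OCT-2, encoded by POU2F2, binds DNA through a POU domain that recognises an 8-letter word, the octamer ATGCAAAT. Its relative OCT-1, encoded by POU2F1, recognises the same word in nearly all cell types, while OCT-2 is best known from B lymphocytes, where it acts on immunoglobulin genes with a coactivator. Octamers are also known parts of the promoters of histone genes and of genes for small nuclear RNAs.

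The study profiled MDA-MB-231, a triple-negative human breast cancer line, and MDA-MB-436 cells by ChIP-seq in 19 samples. The peaks come from 231Pa_Luc+OCT-2, the parental line with luciferase and POU2F2 transgenes, precipitated with anti-OCT-2 in 2 replicates. The superenhancers, broad regions of H3K27 acetylation, are the 518 of the same cells, and 337 of 231Pa_Luc+GFP, which carries luciferase and GFP. Transgenes were stably expressed in polyclonal cells, luciferase was in both, and the clone 231-D, also with luciferase, gave a separate list of 917 OCT-2 regions. That list is in another genome build (hg19) and was not compared by position. No OCT-2 ChIP of the parental or the GFP cells was analysed here, so that binding of endogenous and of forced OCT-2 cannot be told apart. The authors made 1 list from both replicates, with positions only. The list holds no read count, score or value per library, the depth is unknown, and no test over samples could be made. All shares below are therefore descriptions, with exact Clopper-Pearson 95% intervals that cover counting error only. Peaks and genes are not replicates of a condition.

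Octamers lay inside 36 of the 217 peaks that overlapped a promoter window, and the other 181 had none inside the peak there. The rest of the 415 peaks overlapped no window and could not be searched. Some of the octamers are shown here so that they can be read in the DNA, though most peaks searched held none. Each is a stretch of the promoter window of 1 gene whose window a peak overlapped, taken upstream of the gene's start from RefSeq (GRCh38.p14) and written 5′ to 3′ on the gene's own strand. The capitals mark the octamer, as ATGCAAAT or as its reverse complement ATTTGCAT. The first set is single octamers whose middle lay within 6 bases of the middle of the peak, from genes of unrelated roles.
INTS6L: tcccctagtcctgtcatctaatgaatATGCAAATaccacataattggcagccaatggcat
OPA3: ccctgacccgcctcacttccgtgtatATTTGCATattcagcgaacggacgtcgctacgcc
SRF: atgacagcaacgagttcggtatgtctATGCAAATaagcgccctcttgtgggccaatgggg
LGR4: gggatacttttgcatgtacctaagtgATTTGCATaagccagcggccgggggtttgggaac
NT5C: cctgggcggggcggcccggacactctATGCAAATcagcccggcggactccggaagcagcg
APAF1: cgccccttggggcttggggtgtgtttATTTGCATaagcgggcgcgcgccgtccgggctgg
ELF3: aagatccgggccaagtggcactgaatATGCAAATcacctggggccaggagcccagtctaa
PARP2: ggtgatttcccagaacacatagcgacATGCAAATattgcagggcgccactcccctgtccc
The second set is single octamers farther from the middle, chosen to show a replication-independent histone gene, a matrix gene, a Mediator gene and a promoter shared by 2 genes on opposite strands.
H3-3B: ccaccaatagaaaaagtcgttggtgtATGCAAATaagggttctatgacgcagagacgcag
TNC: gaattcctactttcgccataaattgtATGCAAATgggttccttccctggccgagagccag
MED16: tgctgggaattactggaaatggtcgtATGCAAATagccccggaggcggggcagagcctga
NPHP4: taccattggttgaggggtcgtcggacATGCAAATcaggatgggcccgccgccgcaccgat
The third set shows 3 promoters with 2 octamers each inside 1 peak.
PIM2: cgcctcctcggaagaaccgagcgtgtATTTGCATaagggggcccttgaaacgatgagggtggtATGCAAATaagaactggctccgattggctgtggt
ATF7IP: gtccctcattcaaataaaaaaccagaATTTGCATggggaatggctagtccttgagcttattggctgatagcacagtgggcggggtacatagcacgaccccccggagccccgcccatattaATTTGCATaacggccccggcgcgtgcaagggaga
E2F3: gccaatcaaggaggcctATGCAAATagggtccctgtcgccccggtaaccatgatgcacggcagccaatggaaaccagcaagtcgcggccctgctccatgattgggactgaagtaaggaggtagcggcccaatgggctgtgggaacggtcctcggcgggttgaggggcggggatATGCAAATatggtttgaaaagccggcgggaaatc

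The stretches lie at chrX:135520531-135520590 (plus strand) for INTS6L, a relative of an Integrator subunit, and at chr19:45584928-45584987 (minus strand) for OPA3, a mitochondrial protein. The stretch of SRF, the serum response factor that drives immediate early and actin genes, lies at chr6:43171129-43171188 (plus strand). The stretch of LGR4, a receptor for R-spondins, lies at chr11:27472792-27472851 (minus strand), that of NT5C, a nucleotidase, at chr17:75131776-75131835 (minus strand), and that of APAF1, the core of the apoptosome, at chr12:98645196-98645255 (plus strand). ELF3, an epithelial ETS factor, has its stretch at chr1:202010433-202010492 (plus strand), and PARP2, a DNA damage enzyme, at chr14:20343475-20343534 (plus strand). In the second set H3-3B, a gene for histone H3.3, lies at chr17:75779822-75779881 (minus strand) and TNC, the matrix protein tenascin-C, at chr9:115118313-115118372 (minus strand). MED16, a Mediator subunit, lies at chr19:893234-893293 (minus strand) and NPHP4, a ciliary protein, at chr1:5992542-5992601 (minus strand). In the third set PIM2, a survival kinase, lies at chrX:48919114-48919210 (minus strand), ATF7IP, a cofactor of a histone methyltransferase, at chr12:14365513-14365666 (plus strand), and E2F3, a cell cycle transcription factor, at chr6:20401629-20401835 (plus strand). All are upstream of the annotated start, outside the transcribed gene.

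Most of the peaks lay at gene starts, just upstream. The side of a peak was known where the promoter table gave the strand of the gene, which it did for 359 of the 415 peaks. Of these, 314 lay within 1 kb of a start, 87.5% (83.6 to 90.7%), and 55 within 1 kb of an end, 15.3% (11.8 to 19.5%). A start alone was met by 290 peaks and an end alone by 41. There were 10 at the start of 1 gene and the end of another. The remaining peaks with a known side also lay near a gene whose side was not known, 14 of them at a start and 4 at an end, and for 56 peaks the side was not known at all. The gene-end peaks were thus mostly peaks near starts, with a small group at the far end of genes.

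The position of the peak middle was counted for all OCT-2 peaks outside superenhancers and outside histone genes, against the nearest start. In the 250 bases before a start there were 159 middles, a density of 636 per kb of offset. In the 250 bases after it there were 20, or 80 per kb. From 500 to 250 bases upstream there were 39, and from 1000 to 500 bases upstream 34. Between 1 and 5 kb away the density was 31.0 per kb upstream and 39.0 per kb downstream, and that is the level of the surroundings. Around gene ends the density stayed between 12 and 32 per kb in every stretch counted, with 8 middles in the last 250 bases of genes and 6 in the first 250 bases beyond them. Away from ends, at 1 to 5 kb, it was 26.8 per kb upstream and 31.8 per kb downstream. Over the 297 middles within 1 kb of the nearest start the median position was -114 bases (interquartile range -236 to -23), and 232 of them, 78.1% (73.0 to 82.7%), were upstream.

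**Figure D1:**
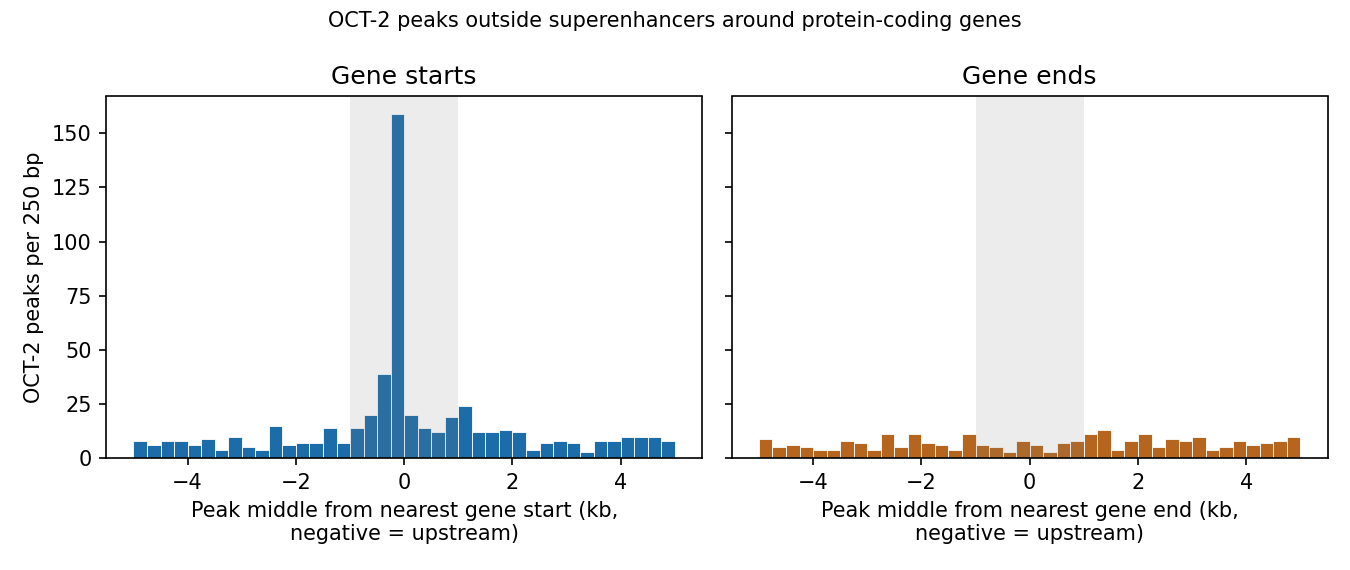
Number of OCT-2 peaks outside superenhancers (y axis, per 250 bp) by the distance of the peak middle from the nearest start (left) or end (right) of a protein-coding gene of known strand (x axis, kb, negative is upstream); grey marks 1 kb on either side. The 250 bases before starts hold 159 peaks, and no stretch around ends stands out.

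Counted over genes, 487 of 19974 protein-coding genes had such a peak, 2.44%. Of the 15812 genes of known strand, 356 had it at the start, 2.25% (2.03 to 2.49%), and 57 at the end, 0.36% (0.273 to 0.467%). The rule used these counts, and they serve as the background for the gene groups below. Of the 415 peaks, 337 lay near 1 gene, 77 near 2 and 1 near 3. At the starts of genes on both strands lay 45 of the 314 start peaks, 14.3% (10.6 to 18.7%). Among the 356 genes with a peak at the start, 87 had a start on the other strand within 1 kb, 24.4% (20.1 to 29.2%), against 2162 of all 15812 genes, 13.7% (13.1 to 14.2%). A gene in such a pair can be reached by a peak of its neighbour, and the share counts that.

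The octamer was found in the promoter windows of these genes several times as often as in all windows. A window ran from 250 bases before to 50 bases after an annotated start, 300 bases in all, and both strands were searched. Of the 356 genes with a peak within 1 kb of the start, 38 held the octamer, 10.7% (7.67 to 14.4%), against 272 of the 15812 genes, 1.72% (1.52 to 1.94%). Shares of all windows are taken over 1 window per gene unless stated otherwise, while the windows a peak overlapped can be several per gene. The share was higher where the peak reached the window. Of the 266 windows that a peak overlapped, belonging to 246 genes, 39 held the octamer, 14.7% (10.6 to 19.5%). Of 130 windows of genes with a peak within 1 kb that did not reach the window, 2 held it, 1.54% (0.187 to 5.45%), close to the share of all windows. Gene-end peaks inside superenhancers overlapped 37 windows, of which 6 held it, 16.2% (6.19 to 32.0%), an interval that covers the share outside superenhancers. At histone gene peaks, inside and outside superenhancers, 12 of 17 windows held it, 70.6% (44.0 to 89.7%). In windows of noncoding genes overlapped by the 415 peaks it was in 3 of 34, 8.82% (1.86 to 23.7%), against 253 of 12829 such windows, 1.97% (1.74 to 2.23%). A match is a description of the letters, not a bound site.

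Within the overlapped windows the octamers crowded towards the middle of the peak. The 39 windows held 41 distinct octamers, 40 of them inside the peak. The median distance from the middle was 21 bases (interquartile range 7 to 44.5), and 19 of 41, 46.3% (30.7 to 62.6%), lay within 20 bases. The density was 2.69 matches per kb of window within 20 bases of the middle, 1.25 from 20 to 40 bases, 0.719 from 40 to 80 and 0.163 from 80 to 120. From 120 to 200 bases there was no match in 16808 positions, which allows up to 0.178 per kb. Over all promoter windows it was 0.0604 per kb. The octamer outside its peak was that of TRERF1, a nuclear factor that binds steroid gene promoters, at 213.5 bases from the middle. The octamers had no fixed direction, since 23 of 43 pairs of a gene and an octamer, 53.5% (37.7 to 68.8%), read ATGCAAAT on the strand of the gene. Every one of them lay upstream of the annotated start of its window, at a median of -108 bases (interquartile range -165.5 to -67) with none closer than 31 bases. For TP53INP2 and TRERF1 that start lay inside the peak, while the gene end used by the rule lay 263 and 154 bases from it. Their octamers were thus measured from another start and may lie within the gene. The window searched ran from 250 bases before to 50 bases after the start, so most of its positions were upstream. Whether these places differ from an even spread over the window was not tested.

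**Figure D2:**
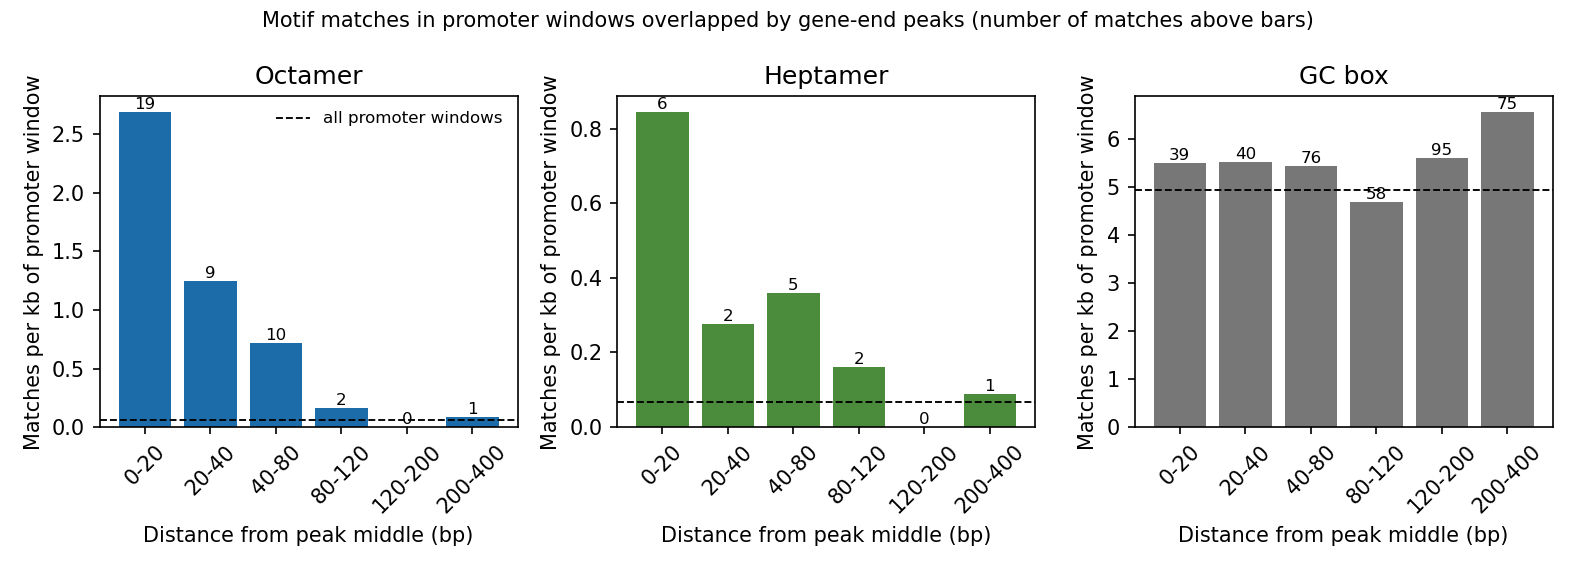
Matches per kb of promoter window (y axis) by distance from the peak middle (x axis, bp) for the octamer (left), the heptamer (middle) and the GC box (right) in the 266 overlapped windows; the number of matches stands above each bar, and the dashed line is the density in all windows. Octamer matches fall off from 2.69 per kb at the middle, while the GC box stays between 4.69 and 6.57 per kb.

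The heptamer CTCATGA, a second word known from immunoglobulin promoters and bound by POU factors, showed a like pattern on few matches. It was in 17 of the 266 overlapped windows, 6.39% (3.77 to 10.0%), against 1.66% (1.46 to 1.87%) of all windows. Within 20 bases of the peak middle there were 6 matches, 0.844 per kb, against 0.0675 per kb over all windows. Octamer and heptamer stood together in 2 windows. The shortened octamer ATGCAAA, which every octamer contains, was in 18.4% (13.9 to 23.6%) of the overlapped windows, against 3.73% of all. The paired half-site word ATGCAT repeated with no gap, to which POU factors bind as dimers, was in none of the 266 windows, which allows a share of up to 1.13% (3 counts of the total), in none of the 15812 windows taken 1 per gene, and in 2 of all 22132 windows.

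Words 1 letter away from the octamer were about as frequent as in all windows. Of the 227 overlapped windows without an octamer, 31 held a word 1 letter away from it, 13.7% (9.47 to 18.8%), against 1779 of 15540 such windows in all, 11.4%. The words found most often within 20 bases of the peak middle were ATGCAAAA with 3 windows and ACGCAAAT with 2. The word ATGCTAAT was in 8 overlapped windows, 3.01%, against 0.569% of all, and 1 of the 8 was close to the middle. These words were picked for their counts, so the values only describe them.

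Other promoter words differed less. The CCAAT box was in 55.6% (49.4 to 61.7%) of the overlapped windows, against 36.4% (35.6 to 37.1%) of all windows. The GC box GGGCGG was in 73.3% (67.6 to 78.5%), against 58.3% (57.5 to 59.1%). The ETS word CCGGAAG was in 20.3% (15.6 to 25.6%), against 14.1% (13.6 to 14.7%), and the TATA box TATAAA in 5.26% (2.91 to 8.67%), against 9.75% (9.29 to 10.2%). Counted over all 22132 windows, several for some genes, the CCAAT box was in 34.6% and the GC box in 56.3%. The ETS word was in 12.8% of them and the TATA box in 9.46%. The NRF1 word CATGCGC reached 9.40% (6.17 to 13.6%), against 5.88%, and the YY1 word AAGATGG 9.77% (6.48 to 14.0%), against 6.36%. The CRE, AP-1, TEAD and E box words had intervals that covered the share of all windows, with 4.14%, 6.02%, 14.7% and 7.89% of the overlapped windows. Unlike the octamer, the GC box did not thin out from the peak middle, with 5.51 matches per kb within 20 bases and 6.57 from 200 to 400 bases. The CCAAT box had 4.35 per kb within 20 bases and 1.83 from 200 to 400, against 1.85 over all windows. The windows were not richer in G and C than others, with a median of 62.3% (interquartile range 57.7 to 66.3%), against 62.7% (53.7 to 70.0%). Their observed to expected CpG ratio was 0.859 (0.724 to 0.970), against 0.762 (0.395 to 0.913). No measure of gene activity was analysed here, so its part in these shares was not tested.

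**Figure D3:**
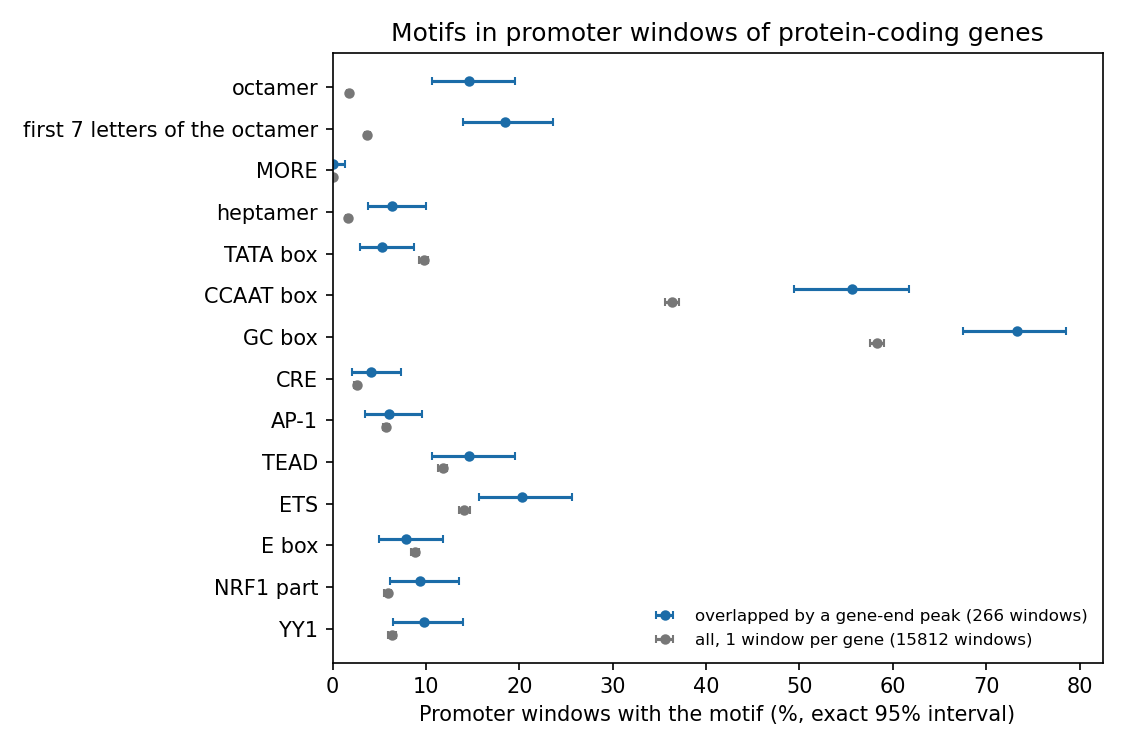
Share of promoter windows holding each motif (x axis, %, exact 95% intervals as bars) in the 266 windows overlapped by a gene-end peak (blue) and in 1 window for each of 15812 protein-coding genes (grey). The octamer is in 14.7% of the overlapped windows against 1.72% of all.

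The genes with an octamer in an overlapped window have many roles; in all but TRERF1 it lay under the peak. Among regulators of transcription were SRF, ELF3, E2F3, SREBF2 (the activator of cholesterol synthesis genes), NFIA (a nuclear factor I protein), ZNF564 (a zinc finger protein), TRERF1, ATF7IP, SINHCAF (a subunit of SIN3 histone deacetylase complexes) and MED16. Chromatin and DNA repair were represented by NAP1L4, a histone chaperone, H3-3B, PARP2 and POLM, a DNA polymerase of end joining. Survival and cell death genes were PIM2, APAF1 and BCL2L12, a member of the BCL2 family, and TP53INP2 acts in autophagy. Signalling genes were LGR4, AMER1 (an inhibitor of Wnt signalling), TRAF3IP2 (the adaptor of the interleukin 17 receptor) and WWC2, an upstream member of the Hippo pathway. At the surface or outside the cell act TNC, TSPAN13 (a tetraspanin), KCNAB2 (a potassium channel subunit), AZGP1 (a secreted glycoprotein) and HS3ST3B1 (a heparan sulfate sulfotransferase). ODAPH is known from tooth enamel. FCHO1 acts in clathrin endocytosis, LMAN2L in the early secretory pathway, and NPHP4 in cilia. OPA3, NT5C, INTS6L, CRYZL1, ABTB2, TMEM256, CCDC107 and LOC112268307 complete the 39.

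The exact places vary. In POLM and INTS6L the octamer sat at the very middle of the peak, 0 bases from it, in OPA3 2 bases from it, in SRF 3, in LGR4 4 and in APAF1 and NT5C 4.5. The octamer of SRF lay at chr6:43171155-43171162, 114 bases before the start, in a peak at chr6:43171043-43171280 of the smallest width in the list, 238 bases. ELF3 also had a peak of 238 bases, with the octamer 5 bases from its middle and 128 bases before the start. TNC, a gene linked to lung metastasis of MDA-MB-231, had its octamer 189 bases before the start and 25.5 bases from the middle of a 269-base peak. E2F3, PIM2, POLM and ATF7IP had 2 octamers each in the window. In PIM2 they lay 7 and 30 bases from the middle, in ATF7IP 21 and 73, in E2F3 72 and 84 on either side of it, and in POLM 0 and 112. A single octamer served the windows of both NPHP4 and KCNAB2, 150 and 108 bases before their starts, and another those of AMER1 and LOC112268307.

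Peaks with and without an octamer overlapped in width. The 36 peaks with an octamer inside had a median width of 268.5 bases (interquartile range 254 to 290.5), against 275 (252 to 341) for the other 181 peaks that overlapped a promoter window. Their median distance to the nearest superenhancer was 1496 kb, against 1063 kb. These 217 peaks that overlapped a window were 52.3% (47.4 to 57.2%) of the 415. The other peaks lay off the windows, or near genes with no window in the table.

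Every one of the 415 regions merges 2 calls, and its width is the span of both. The narrowest regions of the list measured 238 bases, and 538 of the 5741 had exactly this width. If each call had this one width, which the labels and files do not state, the width beyond 238 is the offset between both calls. The gene-end peaks had a median width of 270 bases (interquartile range 248.5 to 315), so a median offset of 32 bases. Exactly 238 bases were found in 34, 8.19% (5.74 to 11.3%), against 534 of all 5736, 9.31% (8.57 to 10.1%). An offset of 30 bases or less was found in 195, 47.0% (42.1 to 51.9%), against 55.0% (52.9 to 57.1%) of the 2212 peaks in gene bodies, 53.7% (50.6 to 56.7%) of the 1047 intergenic peaks within 50 kb of a gene, and 44.4% (41.0 to 47.8%) of the 829 peaks elsewhere in superenhancers. For the 70 gene-end peaks inside superenhancers it was 48.6% (36.4 to 60.8%). For the 1146 peaks farther from genes it was 50.4% (47.5 to 53.4%), and both intervals overlap that of the 415. The 290 peaks at starts alone had a median of 270.5 bases and the 41 at ends alone 268. The lists give no measure of binding strength, and whether width or offset follows strength was not tested.

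**Figure D4:**
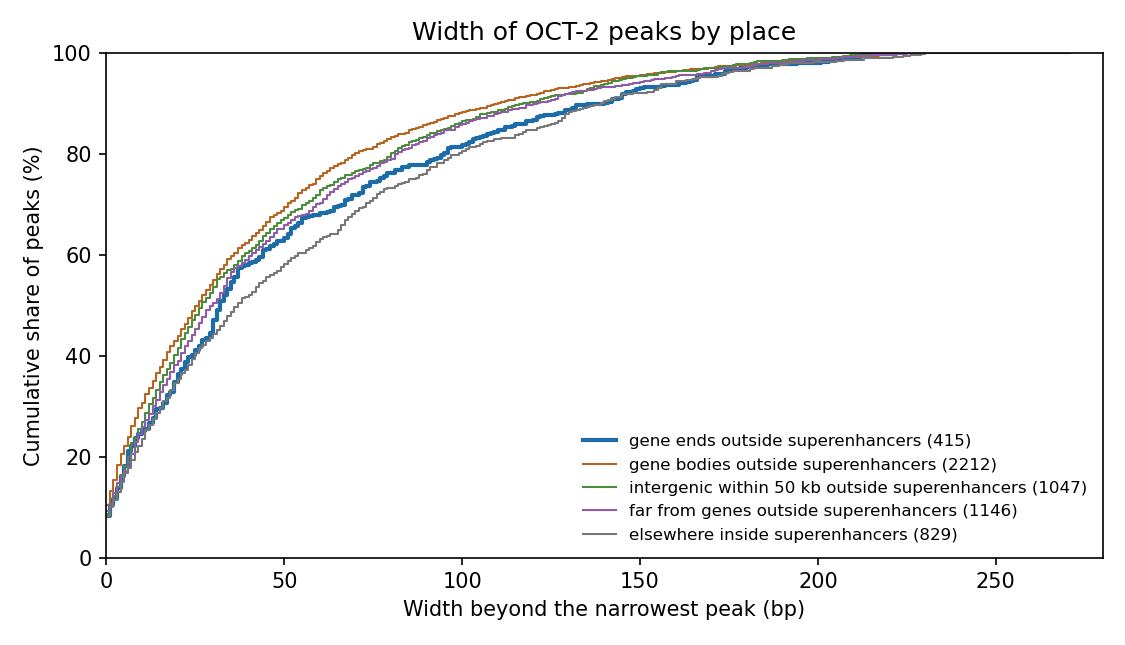
Cumulative share of peaks (y axis, %) by width beyond the narrowest peak (x axis, bp) for gene-end peaks outside superenhancers (thick blue) and peaks of other places, with their numbers in the key. The curve of the 415 gene-end peaks runs below that of the gene bodies, with 47.0% against 55.0% at 30 bp.

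The 10 widest peaks lay at GET3 (460 bases), a factor that inserts tail-anchored membrane proteins, HP1BP3 (455), a heterochromatin protein, PIKFYVE (450), a phosphoinositide kinase, and the shared start of MITD1 and MRPL30 (449). Next came COG2 (448), a Golgi tethering subunit, CALR3 and C19orf44 (445), PPARD (441), a nuclear receptor of lipids, ST8SIA4 (439), a polysialyltransferase, RPL7L1 (432), a relative of ribosomal protein L7, and GABPB2 with MLLT11 (424). None of the genes with a window in the table held an octamer in an overlapped window among these. On the reading above their calls lay 186 to 222 bases apart.

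Most gene-end peaks stood alone. Another OCT-2 peak within 5 kb was found for 27 of the 415, 6.51% (4.33 to 9.33%), against 6.19% (5.23 to 7.28%) of gene body peaks, 18.6% (10.3 to 29.7%) of gene-end peaks inside superenhancers and 17.9% (15.3 to 20.6%) of the other peaks inside them. The median distance to the next peak was 122 kb. A superenhancer within 50 kb was found for 3 peaks, 0.723% (0.149 to 2.10%), against 2.58% (1.96 to 3.33%) of gene body peaks and 3.15% (2.18 to 4.40%) of intergenic peaks. The median distance to a superenhancer went the other way, with 1222 kb for the gene-end peaks. It was 1777 kb for gene body peaks and 1417 kb for these intergenic peaks. In 4 of the 415, 0.964% (0.263 to 2.45%), the region was inside a superenhancer of the GFP cells and not of the OCT-2 cells, against 1.04% of gene body peaks, 2.01% of intergenic peaks within 50 kb of a gene and 1.31% of those farther away. These were at DEF6, a guanine nucleotide exchange factor of lymphocytes, PPARD, WDR74, a ribosome assembly protein, and MILR1, an immunoglobulin-like receptor.

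Genes with 2 peaks were few. WWC2, PRDM10, STX16 (a Golgi SNARE) and SCUBE1 (a secreted protein) had 2 peaks each, and the neighbours LYSMD1 and SCNM1 shared 2. The gaps within these pairs were 0.413 kb at LYSMD1 and SCNM1, 0.418 kb at PRDM10, 0.551 kb at SCUBE1, 0.599 kb at WWC2 and 0.89 kb at STX16. RPL7L1 had 1 peak at its start and 1 at its end, 9.95 kb apart, the second lying also at the start of PEX39. The octamer of WWC2 was under the peak nearer to its start, 26.5 bases from the middle.

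Small RNA genes other than miRNA genes lay within 1 kb of 14 of the peaks, 3.37% (1.86 to 5.60%). The like share of all OCT-2 peaks, or of all protein-coding gene ends, was not counted. Whether 3.37% is more than lies beside any gene end is therefore not known. The peak of GSTA4 overlapped RN7SK, the RNA that holds the elongation factor P-TEFb, that of CCDC107 overlapped RMRP, the RNA of RNase MRP, and that of PARP2 overlapped RPPH1, the RNA of RNase P. Counted over genes, 8 of the 154 genes for small nuclear RNAs had such a peak, 5.20% (2.27 to 9.98%). By the rule, a gene for a small RNA could count only through a peak that also lay near a protein-coding gene end. These shares therefore cannot be compared with the 2.44% of protein-coding genes, which the rule itself set. Among the other classes of more than 1 gene there were 5 of 443 tRNA genes, 1.13% (0.368 to 2.61%), 6 of 1911 miRNA genes, 0.314% (0.115 to 0.682%), and 2 of 1196 small nucleolar RNA genes, 0.167% (0.0203 to 0.603%). RNU11 lay 21 bases from the peak of TAF12, RNU12 24 bases from that of POLDIP3, RNU6-9 46 bases from that of MED16, RNU2-2 55 bases from that of WDR74 and RNU6-2 115 bases from that of TMEM259. RNU7-1 lay 910 bases from the peak of C12orf57, and LOC124904122 13 bases from that of IGBP1C. Small nucleolar RNA genes were SNORD13 at the peak of TTI2 and SNORD60 at that of TRAF7. The peak of HES7 overlapped a leucine tRNA gene, TRL-TAG1-1, among 4 tRNA genes within 1 kb, and that of PLEKHG2 lay 61 bases from TRI-TAT1-1.

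For 3 of these the octamer under the peak lay in the window of the protein-coding gene and also near the small RNA gene. It was 90 bases from RPPH1 in the window of PARP2, 208 bases from RMRP in that of CCDC107 and 217 bases from RNU6-9 in that of MED16. A region between such a pair of genes cannot be given to either. Among the 41 peaks at ends alone, those of HES7, C12orf57 and IGBP1C had a small RNA gene within 1 kb. Long noncoding RNA genes had an end within 1 kb of 76 peaks, 18.3%, and these were 73 of 18177 such genes, 0.402% (0.315 to 0.505%). For these too the share of all OCT-2 peaks was not counted, and only genes near a protein-coding gene end could count. The 14 peaks near small RNA genes had a median width of 273 bases.

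At the ends of genes the peaks gave no shared place. Of the 41 peaks at an end alone, 7 reached the gene end itself, among them those of RGMB, a coreceptor of bone morphogenetic proteins, MDGA1 and CNKSR3, against 122 of the 290 at starts alone, or 42.1%. The peak of SLC8A2, a sodium and calcium exchanger, lay 3 bases from the end and that of EHD2, a protein of caveolae, 12 bases. At the far side lay MRPS25 at 982 bases and MRPL34 at 1000 bases, both mitochondrial ribosomal proteins. RGMB, MDGA1, CNKSR3 and EHD2 were chosen after their values were seen. Just inside the limit of 1 kb lay IQGAP3 (987 bases), HNRNPK (997) and MRPL34 (1000), and just outside TCEA1 (1002), SLF2 (1007) and KLF5 (1012).

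Chromosome 19, the densest in genes, held 44 gene-end peaks among its 143 OCT-2 peaks, 30.8%, the highest share of any chromosome. Counted over its genes, 55 of 1451 had such a peak, 3.79%, against 4.48% of the genes of chromosome 6, 3.68% of chromosome 17 and 0.468% of chromosome 16. Chromosome 16 held only 51 OCT-2 peaks in all, of which 4 were at gene ends.

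The gene groups follow by role, each read against the 2.44% of all protein-coding genes. They were described by counts, with no test. Machinery of transcription came highest among the groups of 30 or more genes, with 9 of 123 genes for RNA polymerase subunits, general factors and Mediator, 7.32% (3.40 to 13.4%). These were POLR2A and POLR2E, subunits of RNA polymerase II, POLR3B of RNA polymerase III, GTF2H4 of TFIIH, TAF8, TAF12 and TAF15, and MED16 and MED22. The 9 genes had 9 peaks, but several peaks are shared with other groups: that of MED22 also covers the start of RPL7A, that of TAF8 also lies 699 bases from CCND3, and that of POLR2A also lies near SLC35G6. MED16 alone among them had an octamer in an overlapped window.

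Chromatin regulators had 5 of 73, 6.85% (2.26 to 15.3%). CHD8, a chromatin remodeller, had a peak of 395 bases over its start, and SMARCC1, a core subunit of BAF complexes, a peak of 367 bases at 28 bases from one of its ends. KDM2B, a demethylase that binds CpG islands, lay 395 bases from its peak, and KMT2A and TET2, a histone methyltransferase and a DNA demethylase, 825 and 870 bases. Splicing proteins had 7 of 126, 5.56% (2.26 to 11.1%): SNRPA1, SNRPB, SNRPC, HNRNPH2, HNRNPK, RBM27 and RBM39.

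Protein synthesis had 5 of 77 cytosolic ribosomal proteins, 6.49% (2.14 to 14.5%), among them RPL7A, RPL27, RPS7 and RPS13, each with a peak that reached the gene. Translation factors had 4 of 72, 5.56% (1.53 to 13.6%), namely EEF1A1, EIF3F, EIF4A2 and EIF5B. Mitochondrial ribosomal proteins had 3 of 77, 3.90% (0.811 to 11.0%), MRPL30, MRPL34 and MRPS25, of which MRPL34 and MRPS25 had the peak at the end. Proteasome genes had 2 of 48 (PSMA5 and PSMD5), 4.17% (0.509 to 14.3%). Heat shock and chaperone genes had 2 of 95 (HSPA4 and DNAJC30), 2.11% (0.256 to 7.40%). Of the 105 listed genes of the respiratory chain none had a peak, which allows up to 2.86%. No ribosomal, translation or splicing gene held an octamer in an overlapped window.

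The large families named next had shares under the 2.44% of all genes, but each interval covered it, so no difference was shown. Zinc finger proteins had 8 of 555, 1.44% (0.624 to 2.82%), with ZNF564 the one that held an octamer. Ubiquitin conjugation genes had 7 of 351, 1.99% (0.806 to 4.07%), and solute carriers 6 of 380, 1.58% (0.582 to 3.40%). Collagens, laminins and integrins had 0 of 86, which allows up to 3.49%.

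**Figure D5:**
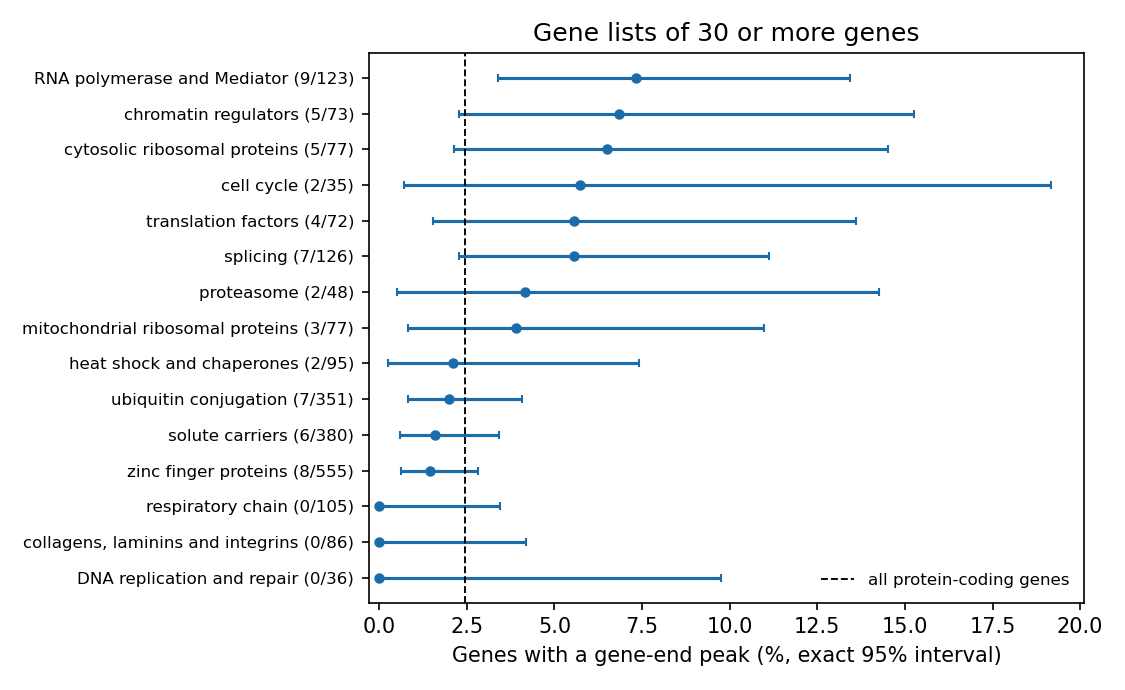
Share of genes with a gene-end peak (x axis, %, exact 95% intervals as bars) in gene groups of 30 or more genes (y axis, with genes with a peak and genes in the group); the dashed line is 2.44%, the share of all protein-coding genes. RNA polymerase and Mediator genes are at the top with 9 of 123, and 3 groups have none.

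Among pathways of cancer and of OCT-2 the counts were small, with 1 or 2 genes in each group named next. Their shares ran from 4.17% (0.105 to 21.1%) for known metastasis genes to 11.8% (1.46 to 36.4%) for genes listed as epithelial. The interval of each of these groups covered the 2.44% of all protein-coding genes. MYC, the growth regulator, had a 247-base peak that reached the gene, and SRF was the other of 22 immediate early genes. CCND3, a D cyclin, and E2F3 were 2 of 35 cell cycle genes. ANKRD1, a target of YAP, had its peak 117 bases from the start, and TEAD4, a partner of YAP, 601 bases from an end, 2 of 18. CXCL3, a chemokine, had a 296-base peak reaching its start, and NFKB1 lay 970 bases from its peak, 2 of 27 NF-kappaB and cytokine genes. ELF3 was 1 of the 17 genes listed as epithelial, and ESR2, an estrogen receptor on the same list, was the other with a peak. TNC was 1 of 24 known metastasis genes of this line. POU2F1, the gene of OCT-1, was 1 of 17 POU factors and coactivators, with a 258-base peak that reached its start. Of its 3 windows the peak overlapped 2, and the octamer was in the window that the peak did not reach.

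No gene-end peak was found at the 28 TGF-beta and BMP genes, the 13 AP-1 genes, the 36 DNA replication and repair genes, the 29 RAS and MAPK genes, the 18 mesenchymal genes or the 16 hypoxia genes. These groups are small, and a count of 0 allows shares from 8.33% for DNA replication and repair to 23.1% for AP-1, so that a difference from the 2.44% of all genes was not detectable. Of 17 B-cell genes known from OCT-2, none had one, which allows up to 17.6%. The 10 leukocyte markers, 10 endothelial and fibroblast markers and 10 neural and melanocyte markers had none either. With 10 genes in a group, a count of 0 allows a share of up to 30%.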

How the data were processed

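Chromatin was precipitated with 5 µg of antibody, and 15 PCR cycles were used on the libraries, as the labels' protocols state. Tools named in the submitters' processing notes are HOMER, bedtools, Bowtie and Bowtie2 2.2.2.6, next to hg38 and hg19 as builds, with no role for any. Settings of the peak caller and any subtraction of input are not given in the sources used here. Per the deposited files, each list holds region positions (chromosome, start, end) and the number of merged calls, made by the authors from both replicates. Whether the 2 replicates came from separate cultures is not stated. The lists used are in hg38 by the names the authors gave them, and coordinates are printed 1-based.

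Gene positions were those of RefSeq (GRCh38.p14), 59098 genes with 19974 of them protein-coding. Strand and promoter windows were read from a RefSeq promoter table that held 15812 of those. Genes without an entry are not analysed for side or motif. Where a gene had several windows, the one whose start lay nearest to the 5′ end of the gene was used, and all 22132 windows were tried for overlap with peaks. Overlap meant 1 base or more. The share that a count of 0 allows is the one 3 counts would make. The 14 motifs were exact words on both strands. Named genes are those at the 10 widest peaks, with an octamer in an overlapped window, on the 31 gene lists, with 2 or more peaks, in a superenhancer of the GFP cells, and at the 3 distances nearest to 1 kb on either side. Genes beside small RNA genes, and a few at gene ends, were named after their values were seen. A named gene and a gene list are not reported here. The members and the lists were chosen with earlier results of these data known. No differential test was run, since the lists used hold no value per library. Positions and motif search were tested on simulated data. Python 3.11.15, numpy 2.4.6, pandas 2.3.3, scipy 1.17.1 and matplotlib 3.10.9 were used.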

Additional observations from a re-analysis of the deposited data

How the results depend on the processing

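The 415 gene-end peaks became 335 within 500 bp and 589 within 2 kb, and the 487 genes became 387 and 694, all within 1.5 times. Taking the peak middle, widening superenhancers by 10 kb, counting a peak as inside a superenhancer only when most of it was, or keeping histone genes left 391 to 427 peaks. The share at starts was 91.1% within 500 bp and 80.3% within 2 kb, against 87.5% within 1 kb, and the median width within 2 kb was 267 bases, against 270. The share of promoters with the octamer, 10.7% over genes with a peak within 1 kb of the start, was 21.1% with 1 mismatch allowed (all promoters 13.0%), 14.7% in the windows a peak overlapped, 1.54% in those it did not, and 16.2% in those at peaks inside superenhancers; the last 2 were added after seeing the data. The first 7 letters gave 14.3% (all promoters 3.73%), and peaks within 500 bp 12.7%, both inside the interval of the 10.7%. With peaks inside superenhancers kept, 560 genes had a gene-end peak. Of the 22 alternatives, 15 kept a share or width within its 95% interval, or a count within 1.5 times. Over all 22132 windows of protein-coding genes, several for some genes, the octamer share was 1.65%. Leaving out a replicate could not be done, and no paired analysis was possible because the lists hold no value per library. Depth is unknown, so missing peaks cannot be told from unsequenced ones.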
